A study of Mus musculus with 34 samples.

Results

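The transcription factors that establish and keep hepatocyte identity were examined as 9 genes, *Hnf4a*, *Foxa1*, *Foxa2*, *Onecut1*, *Cebpa*, *Cebpb*, *Nr5a2*, *Nr1i2* and *Nr1i3*. They were chosen by name or gene identifier from the 78298 genes of the liver RNA sequencing table. All 9 passed the filter on low counts and were among the 14980 genes tested. Hepatocytes are specified and maintained by a network of such factors, which bind each other's genes and the genes of plasma proteins, metabolism and detoxification. *Foxa1* and *Foxa2* encode forkhead pioneer factors that can open chromatin. *Hnf4a*, *Onecut1* (HNF6) and *Cebpa* encode factors of the differentiated hepatocyte, whereas *Cebpb* encodes a related bZIP factor known for its role in the acute-phase response and in the proliferation of hepatocytes after loss of liver mass.

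Livers came from wild-type (WT) mice and from mice without *Sirt1* in the intestinal epithelium (SIRTintKO, written SIRT1intKO in the labels). By the study's methods, all mice were young adult males of C57/Bl6 background and carried *Sirt1* alleles with floxed exon 4. The SIRTintKO mice also carried a Cre recombinase driven by the Villin promoter, which is active in the intestinal epithelium, and the WT mice lacked it. Whole liver was taken from untreated mice (0 hours) or at 6 or 24 hours after partial hepatectomy (PHx), the surgical removal of most of the liver. By the labels there were 6 WT and 6 SIRTintKO livers at 0 hours, 6 and 5 at 6 hours, and 4 and 7 at 24 hours. Each is given as a separate biological replicate. The study's figure legends give 5 livers per genotype at 6 hours and 5 WT and 7 SIRTintKO livers at 24 hours. The WT numbers at both times therefore differ between labels and study, and whether a liver is mislabeled was not tested.

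The 34 libraries held between 14892122 and 23480492 counts, with a median of 16807340. Values are given as CPM, counts expressed per the same total in each library, with library sizes corrected by the trimmed mean of M values (TMM). Hepatic *Sirt1*, which the intestinal deletion leaves in place and which therefore does not check the genotype, lay between 8.35 and 23.1 CPM in WT and between 6.92 and 16.3 CPM in SIRTintKO livers. All 8 hepatocyte markers listed were found, and their summed level was at least 67150 CPM in every library. The 0-hour libraries carry a number series of their own in the labels, so a difference in handling cannot be told apart from the effect of PHx. Libraries of 1 group resembled each other least in WT livers at 24 hours, where the mean rank correlation of a library with the others of its group, across genes, was 0.919 to 0.939. All libraries are kept below, and values without the library concerned are given where 1 library changed a result.

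Promoter windows of the 9 genes were read from RefSeq promoters (GRCm38.p6), with 13 windows for the 9 genes. The 250 bases before the transcription start are shown for 4 genes, *Onecut1* and *Cebpa*, which differed most between genotypes at 24 hours, and *Nr1i2* and *Nr1i3*, the xenobiotic receptors, which passed in opposite directions at 6 hours in SIRTintKO livers. Capitals mark matches, on either strand, to the letters TTNNGCAA (for C/EBP), TGTTTNC (for FOXA), TCAATA (for ONECUT), TTCNNNGAA (for STAT), CAAAGTNCA (for HNF4), TATAAA (the core promoter box known as TATA), GTTAATNNT (for HNF1) or AGGTCA (for a half-site of nuclear receptors), where N is any base. No 2 of these matches overlap in the windows shown.
Onecut1, chr9:74861671-74861920, plus strand: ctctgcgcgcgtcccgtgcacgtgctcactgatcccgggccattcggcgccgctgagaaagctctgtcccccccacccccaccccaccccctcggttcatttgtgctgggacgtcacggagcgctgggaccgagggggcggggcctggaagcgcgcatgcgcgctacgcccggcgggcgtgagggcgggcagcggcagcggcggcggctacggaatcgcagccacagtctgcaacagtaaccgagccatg
Cebpa, chr7:35119043-35119292, plus strand: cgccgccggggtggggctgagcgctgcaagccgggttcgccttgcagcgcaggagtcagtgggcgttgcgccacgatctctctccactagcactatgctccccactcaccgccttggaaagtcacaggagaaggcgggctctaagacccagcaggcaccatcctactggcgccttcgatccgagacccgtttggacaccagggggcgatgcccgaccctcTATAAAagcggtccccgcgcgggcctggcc
Nr1i2, chr16:38294825-38295074, minus strand: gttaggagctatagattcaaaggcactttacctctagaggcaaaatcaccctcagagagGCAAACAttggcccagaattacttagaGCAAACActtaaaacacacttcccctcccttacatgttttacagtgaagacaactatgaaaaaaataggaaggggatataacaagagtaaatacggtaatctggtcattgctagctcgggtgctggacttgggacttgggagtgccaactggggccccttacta
Nr1i3, chr1:171213720-171213969, plus strand: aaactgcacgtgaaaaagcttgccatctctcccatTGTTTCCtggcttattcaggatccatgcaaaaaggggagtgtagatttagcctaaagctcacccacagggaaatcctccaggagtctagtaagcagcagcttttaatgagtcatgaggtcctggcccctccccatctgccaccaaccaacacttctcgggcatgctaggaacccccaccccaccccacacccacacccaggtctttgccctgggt
The *Cebpa* window held a TATA match beginning 30 bases before the start, letters found in 12.4% of the 32851 promoter windows of the same length. *Nr1i2* held 2 FOXA matches and *Nr1i3* held 1, letters found in 17.8% of all windows. The *Onecut1* window held none of the letters searched, and 71.6% of its bases were G or C, as were 66.4% for *Cebpa*, 44.0% for *Nr1i2* and 53.2% for *Nr1i3*, with a median of 52.4% over all windows. Among the windows not shown, 1 of the 2 *Hnf4a* windows held an HNF1 match 77 bases before the start (2.27% of all windows) and the other held an ONECUT match 58 bases (6.57%) and a FOXA match 238 bases before it, and the *Foxa1* window held a FOXA match 141 bases before it. Windows of *Foxa2* held ONECUT, HNF1 and TATA matches, those of *Nr5a2* held ONECUT, HNF1, half-site, TATA and C/EBP matches, and that of *Cebpb* held none. These matches describe letters in the windows and are not evidence of binding.

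Per kilobase of exon (GENCODE vM21), *Hnf4a* stood highest in untreated WT livers, with 103 ± 16.7 CPM per kb (SD, n = 6). It was followed by *Cebpa* with 77.2 ± 18.1 and *Cebpb* with 73.7 ± 18.2 CPM per kb, and the ranges of these 3 genes overlapped. *Nr1i2* with 28.2 ± 5.04 and *Nr1i3* with 27.7 ± 9.71 CPM per kb came next, overlapped with each other and lay under every *Cebpb* value. *Foxa2* had 14.2 ± 5.43, *Nr5a2* 6.08 ± 1.12, *Foxa1* 4.96 ± 2.39 and *Onecut1* 2.85 ± 1.24 CPM per kb. *Foxa2* overlapped with *Nr1i3* but lay above every *Nr5a2* value, while *Nr5a2* overlapped with *Foxa1* and *Foxa1* with *Onecut1*. The lengths join all annotated exons of a gene, 4414 bases for *Nr1i3* and 1504 for *Cebpb*, and are not those of the transcripts expressed. This order depends on them, since before division by length *Nr1i3* had a mean of 122 CPM and *Cebpb* of 111 CPM. The spread within the untreated groups differed between the genes. The coefficient of variation in WT livers was 16.2% for *Hnf4a* and 17.9% for *Nr1i2*, but 48.2% for *Foxa1* and 43.5% for *Onecut1*.

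**Figure D1:**
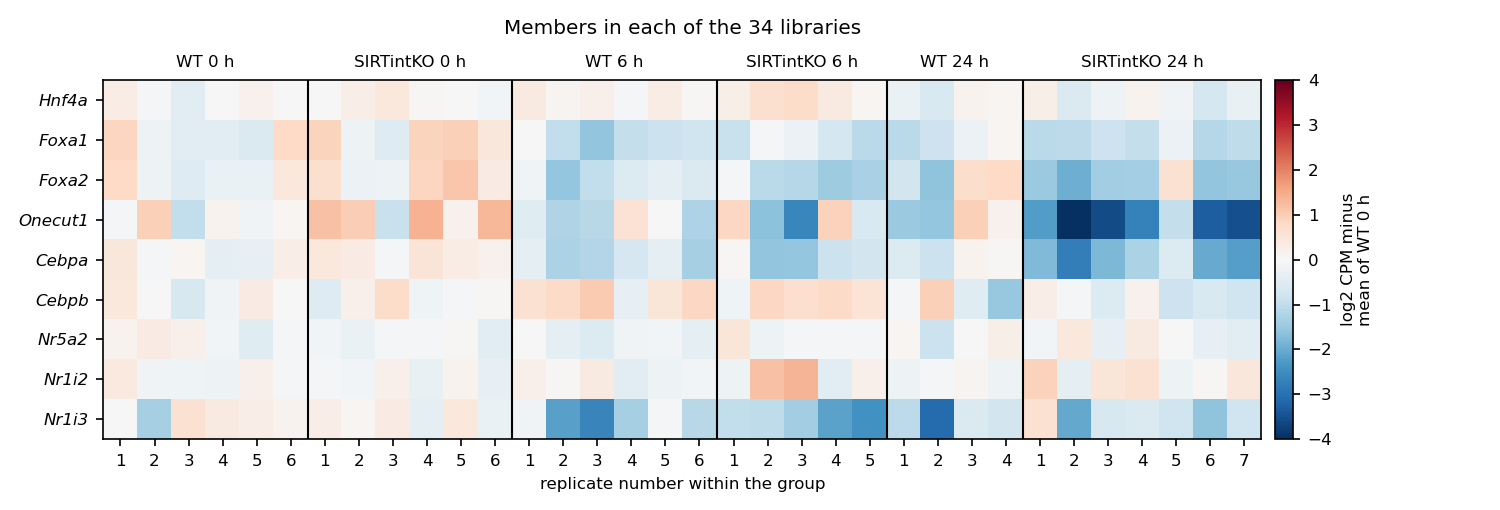
Each column is 1 of the 34 libraries, grouped by genotype and time after PHx and numbered by replicate, and color gives log2 CPM minus the mean of the 6 WT livers at 0 hours. *Onecut1* and *Cebpa* are lowest in the SIRTintKO livers at 24 hours, where replicate 5 stands apart from the other 6 for *Onecut1*, *Cebpa* and *Foxa2*.

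Most of the changes in this network were decreases. Genes are said to have passed where edgeR's quasi-likelihood test gave a Benjamini-Hochberg adjusted p under 0.05 over all genes tested. At 6 hours against 0 hours, 3 of the 9 genes passed as lower and 0 as higher in WT livers, where 18.5% of all genes passed as lower and 18.9% as higher. In SIRTintKO livers 4 passed as lower and 1 as higher, against 17.6% and 20.9% of all genes. At 24 hours against 0 hours, 0 of 9 passed in WT livers, where 14.6% of all genes passed as lower and 19.5% as higher, and 1 of the 9, *Nr1i3*, had an unadjusted p under 0.05 in edgeR and passed with DESeq2. In SIRTintKO livers 4 of 9 passed as lower and 0 as higher at 24 hours, against 24% and 26.2% of all genes. The median log2 fold change of the 9 genes at 24 hours was -0.14 in WT and -0.72 in SIRTintKO livers, beside 0.02 and 0.04 over all genes tested. Fewer hepatocytes and less of these RNAs per hepatocyte cannot be told apart in whole liver.

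**Figure D2:**
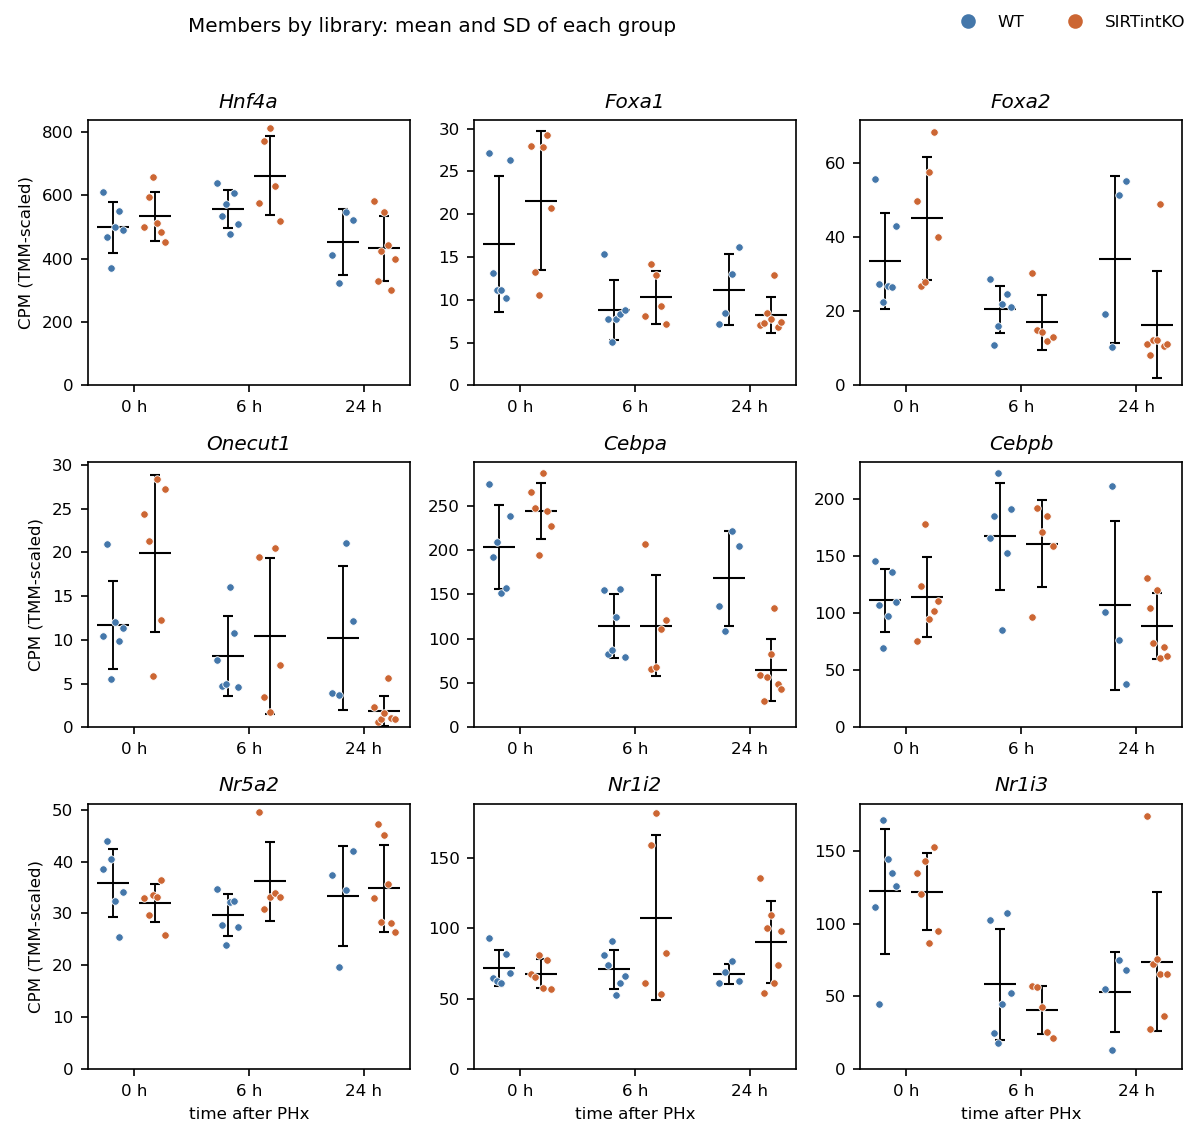
Each point is 1 liver (blue, WT; orange, SIRTintKO), the vertical axis gives CPM after TMM scaling from 0, and horizontal and vertical black lines are the mean and SD of each group. At 24 hours the SIRTintKO livers lie low for *Onecut1*, *Cebpa* and *Foxa2*, with replicate 5 the highest of the 7 for each, while *Hnf4a* and *Nr5a2* stay within the range of the other groups for most livers.

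*Hnf4a* encodes a nuclear receptor that binds the promoters of many hepatocyte genes, and its level moved little. In WT livers its lowest, median and highest values were 371, 495 and 612 CPM at 0 hours and 478, 554 and 638 CPM at 6 hours. The 4 WT livers at 24 hours had 324, 413, 522 and 549 CPM. In SIRTintKO livers the lowest, median and highest were 453, 506 and 659 CPM at 0 hours. At 6 hours the 5 values were 521, 576, 630.3, 773 and 812 CPM, and at 24 hours the lowest, median and highest of 7 were 301, 424 and 581 CPM. These ranges overlapped in all comparisons. Against 0 hours, *Hnf4a* did not pass at 24 hours in SIRTintKO livers (log2 fold change -0.30, 95% interval -0.61 to 0.01, edgeR adjusted p = 0.0944). Without SIRTintKO replicate 1 or replicate 4 at 24 hours it passed, with -0.41 (adjusted p = 0.0246) and -0.37 (adjusted p = 0.0453). From 6 to 24 hours *Hnf4a* fell by 0.62 on the log2 scale in SIRTintKO livers (SE 0.158, edgeR adjusted p = 0.0045), with means ± SD of 662 ± 126 CPM (n = 5) before and 432 ± 104 CPM (n = 7) after. In that comparison 4 of the 9 genes passed as lower and 0 as higher, where 14.4% and 13.2% of all genes did. In WT livers 0 of 9 passed between 6 and 24 hours, beside 6.43% of all genes lower and 10% higher. There 0 of the 9 had an unadjusted p under 0.05 in edgeR, and 0 passed with DESeq2.

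*Nr5a2* encodes LRH-1, a nuclear receptor of bile acid synthesis genes, and passed in 0 of the 11 comparisons. Its group means lay between 29.7 and 36.2 CPM. The 5 SIRTintKO livers at 6 hours had 30.8, 33.2, 33.3, 33.9 and 49.6 CPM, and replicate 1 was the high one. Its 95% interval for SIRTintKO against WT at 24 hours was -0.30 to 0.43 on the log2 scale, which leaves room for changes of that size.

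The forkhead genes *Foxa1* and *Foxa2* passed as lower at 6 and 24 hours in SIRTintKO livers, and in WT livers only *Foxa1* at 6 hours did. *Foxa1* had a lowest, median and highest value of 10.2, 12.1 and 27.1 CPM in WT livers at 0 hours and of 5.05, 8.01 and 15.4 CPM at 6 hours. In SIRTintKO livers these were 10.5, 24.3 and 29.2 CPM at 0 hours, and the 5 livers at 6 hours had 7.13, 8.08, 9.22, 12.9 and 14.2 CPM. The ranges overlapped in both genotypes, since 2 untreated WT livers and 4 untreated SIRTintKO livers lay at 20.7 CPM or more and the rest at 13.2 CPM or less. In WT livers *Foxa1* fell by 0.91 on the log2 scale (SE 0.292, edgeR adjusted p = 0.0146), and it fell by 1.07 in SIRTintKO livers (SE 0.308, edgeR adjusted p = 0.00662). The WT call ended without WT replicate 1 at 0 hours, the highest of the 6 (adjusted p = 0.0598).

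At 24 hours the 4 WT livers had 7.13, 8.46, 12.99 and 16.1 CPM of *Foxa1*. The 7 SIRTintKO livers had a lowest, median and highest value of 6.83, 7.43 and 12.9 CPM. *Foxa1* was 2.61-fold lower than at 0 hours in SIRTintKO livers (log2 fold change -1.38, SE 0.278, edgeR adjusted p = 0.000148). In WT livers the change was -0.56 (SE 0.325, edgeR adjusted p = 0.185).

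*Foxa2* also fell in SIRTintKO livers. Its lowest, median and highest values at 0 hours were 26.8, 44.9 and 68.2 CPM, the 5 livers at 6 hours had 11.96, 13.1, 14.5, 15.1 and 30.2 CPM, and those at 24 hours had a lowest, median and highest of 8.29, 11.3 and 48.8 CPM. All but 1 liver at each time after PHx lay under every untreated liver, and the exceptions were replicate 1 at 6 hours and replicate 5 at 24 hours. *Foxa2* fell by 1.41 on the log2 scale at 6 hours (SE 0.424, edgeR adjusted p = 0.00913) and by 1.46 at 24 hours (SE 0.379, edgeR adjusted p = 0.00205). Without SIRTintKO replicate 5 at 24 hours the latter was -2.04. In WT livers *Foxa2* had 22.4, 27.01 and 55.5 CPM as lowest, median and highest at 0 hours and 10.8, 21.5 and 28.6 CPM at 6 hours. The 4 WT livers at 24 hours split into 10.5 and 19.2 CPM in replicates 2 and 1 and 51.3 and 55.0 CPM in replicates 3 and 4. Neither WT change passed (log2 fold changes -0.71 and 0.02, edgeR adjusted p = 0.16 and 0.975), although the change at 6 hours passed with only the 2 WT groups fitted (-0.68, adjusted p = 0.0365).

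*Onecut1* encodes HNF6, a cut-homeodomain factor of hepatocyte and biliary development, and showed the widest change. In SIRTintKO livers its lowest, median and highest values were 5.87, 22.9 and 28.4 CPM at 0 hours. The 5 livers at 6 hours had 1.76, 3.45, 7.13, 19.4 and 20.5 CPM, a spread that overlapped with both other times. The 7 livers at 24 hours had 0.587, 0.904, 0.950, 1.11, 1.68, 2.29 and 5.58 CPM. Every liver at 24 hours was under every untreated liver, although the highest, replicate 5, was close to the lowest untreated value. *Onecut1* was 10.6-fold lower at 24 than at 0 hours (log2 fold change -3.401, SE 0.555, edgeR adjusted p = 1.05e-05), and *Onecut1* and *Cebpa* were the 2 of the 9 genes whose ranges did not overlap as lower there, where 10.9% of all genes had such ranges. From 6 to 24 hours it fell by 2.47 on the log2 scale (SE 0.563, edgeR adjusted p = 0.00164). The lowest value rested on 8 counts and the largest count among the 34 libraries was 438, so the low values carry counting error as well as differences between mice. Exons of *Gm20649* on the same strand overlap those of *Onecut1* in GENCODE vM21, and *Gm20649* reached up to 3.46 CPM. Before rounding, 44.1% of the *Onecut1* values were not whole. How reads were shared between these genes was not tested.

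In WT livers *Onecut1* had a lowest, median and highest value of 5.47, 10.9 and 20.9 CPM at 0 hours and of 4.59, 6.36 and 16.1 CPM at 6 hours. The 4 livers at 24 hours had 3.71, 3.87, 12.2 and 21.1 CPM, again with replicates 2 and 1 low and replicates 4 and 3 high. The WT log2 fold change at 24 hours was -0.19 (95% interval -1.39 to 1.01, edgeR adjusted p = 0.825).

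*Cebpa* encodes C/EBPα, a bZIP factor of the quiescent, differentiated hepatocyte, and was lower after PHx in each group but the WT livers at 24 hours. In WT livers the lowest, median and highest values were 151, 200.3 and 275 CPM at 0 hours and 78.8, 106 and 156 CPM at 6 hours. In SIRTintKO livers they were 194, 246 and 286 CPM at 0 hours, and the 5 livers at 6 hours had 66.1, 68.2, 111, 121 and 207 CPM. The ranges overlapped at 6 hours through the highest livers after PHx. In WT livers *Cebpa* fell by 0.84 on the log2 scale (SE 0.287, edgeR adjusted p = 0.0213), and it fell by 1.09 in SIRTintKO livers (SE 0.305, edgeR adjusted p = 0.00528). The WT call ended without WT replicate 1 at 0 hours (adjusted p = 0.0556) or without WT replicate 6 at 6 hours (adjusted p = 0.0536).

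At 24 hours the 7 SIRTintKO livers had 29.2, 43.0, 49.1, 56.7, 59.1, 82.4 and 135 CPM of *Cebpa*, all under the 6 untreated SIRTintKO livers. This was 3.76-fold lower (log2 fold change -1.91, SE 0.279, edgeR adjusted p = 2.23e-06). The 4 WT livers had 109, 137, 205 and 221 CPM, which overlapped with the untreated WT livers (log2 fold change -0.28, SE 0.32, edgeR adjusted p = 0.528). From 6 to 24 hours the SIRTintKO value fell by 0.82 (SE 0.286, edgeR adjusted p = 0.032), a call that ended when any of 8 single livers was dropped. These were SIRTintKO replicates 1, 4 and 5 at 6 hours and replicates 1, 2, 3, 6 and 7 at 24 hours. Without replicate 1 at 6 hours, the highest of its group, the change was -0.48 (adjusted p = 0.223). The call was also lost when only the 2 groups were fitted (adjusted p = 0.127). Adding the replicate number to the fit as a block ended it too (edgeR adjusted p = 0.056).

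*Cebpb* encodes C/EBPβ, which forms dimers with C/EBPα, and did not follow *Cebpa* downward at 6 hours. In WT livers its lowest, median and highest values were 69.5, 108 and 146 CPM at 0 hours and 85.4, 175 and 222 CPM at 6 hours, where replicate 4 was the low one. In SIRTintKO livers they were 75.3, 106 and 178 CPM at 0 hours, and the 5 livers at 6 hours had 96.5, 159, 171, 185 and 191 CPM. The ranges overlapped, and the changes did not pass (log2 fold changes 0.59 and 0.49, edgeR adjusted p = 0.106 and 0.195). With only the WT groups fitted, the WT change passed (0.62, adjusted p = 0.0267). From 6 to 24 hours *Cebpb* fell by 0.85 in SIRTintKO livers (SE 0.287, edgeR adjusted p = 0.0263), to a lowest, median and highest of 60.7, 74.1 and 130 CPM. That call ended when any of 4 single livers was dropped, namely SIRTintKO replicates 2, 4 and 5 at 6 hours and replicate 6 at 24 hours, with adjusted p up to 0.07. It also ended with the replicate number added to the fit as a block (edgeR adjusted p = 0.0718). The 4 WT livers at 24 hours had 37.6, 76.7, 101 and 211 CPM. From 6 to 24 hours the WT change was -0.65 (edgeR adjusted p = 0.176), and without WT replicate 2 at 24 hours, the highest, it was -1.20 (adjusted p = 0.0119). Exons of *Peds1* on the opposite strand overlap those of *Cebpb* in GENCODE vM21, and reached up to 148 CPM. The libraries were stranded, but the strand setting of the counting is not given in the sources used here.

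The ratio of *Cebpb* to *Cebpa* counts in the same liver does not depend on the scaling of libraries. In untreated livers it ranged from 0.333 to 0.864 in WT and from 0.283 to 0.916 in SIRTintKO, so *Cebpa* had the higher count in all of them. At 6 hours it ranged from 0.687 to 2.55 in WT and from 0.4659 to 2.90 in SIRTintKO livers. The mean log2 ratio rose by 1.43 in WT livers (two-sided exact permutation test, p = 0.00433, adjusted p = 0.0183 over 7 comparisons) and by 1.72 in SIRTintKO livers (exact permutation test, p = 0.0173, adjusted p = 0.0404). In 7 of the 11 tests that each left out 1 liver the SIRTintKO value no longer passed, with adjusted p (exact permutation test) up to 0.074. These left out any of the 6 untreated SIRTintKO livers or replicate 2 at 6 hours.

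At 24 hours the ratio ranged from 0.450 to 3.58 in SIRTintKO livers, with a median of 1.46, and only replicate 5 lay below 1. The log2 ratio was 1.69 above that of untreated SIRTintKO livers (exact permutation test, p = 0.00524, adjusted p = 0.0183). In the 4 WT livers it ranged from 0.184 to 1.94, and the mean log2 ratio of -0.86 ± 1.46 (SD, n = 4) was 0.02 above that of untreated WT livers (exact permutation test, p = 0.962). Between genotypes at 24 hours the difference was 1.41 (exact permutation test, p = 0.0939, adjusted p = 0.164), where 0.00303 is the smallest p the design allows. It passed without WT replicate 2 (2.02, exact permutation test, adjusted p = 0.0303) or without SIRTintKO replicate 5 (1.69, exact permutation test, adjusted p = 0.0417).

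**Figure D3:**
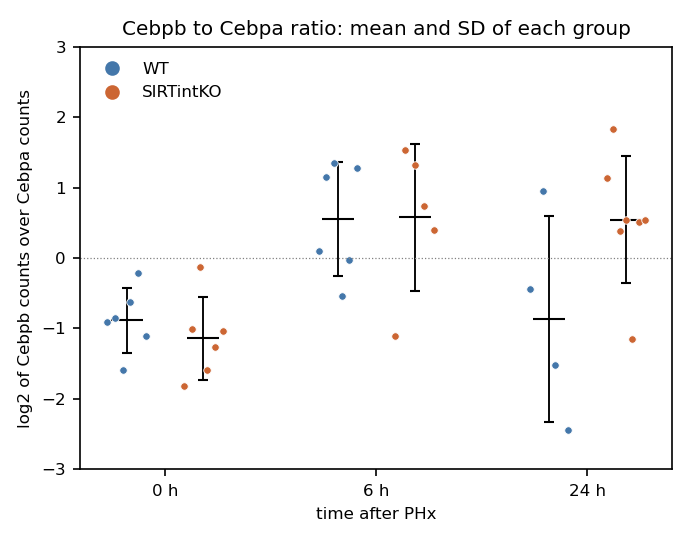
The log2 ratio of *Cebpb* to *Cebpa* counts is plotted for each liver (blue, WT; orange, SIRTintKO) by hours after PHx (0, 6 or 24), with black lines for the mean and SD of each group and a dotted line where both counts are equal. All untreated livers lie under the dotted line, and the SIRTintKO livers at 24 hours lie above it apart from replicate 5.

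The xenobiotic receptors *Nr1i2* (PXR) and *Nr1i3* (CAR), which sense bile acids, drugs and other foreign compounds, went separate ways. *Nr1i3* had a lowest, median and highest value of 45.0, 131 and 171 CPM in WT livers at 0 hours and of 18.3, 48.8 and 107 CPM at 6 hours. In SIRTintKO livers these were 86.9, 128 and 153 CPM at 0 hours, and the 5 livers at 6 hours had 21.3, 25.9, 42.9, 56.3 and 57.1 CPM. The SIRTintKO ranges did not overlap, and *Nr1i3* was the only 1 of the 9 genes of which that was so at 6 hours, where 13% of all genes had non-overlapping ranges as lower. It fell by 1.59 on the log2 scale in SIRTintKO livers (SE 0.456, edgeR adjusted p = 0.00652). In WT livers it fell by 1.07 (SE 0.423, edgeR adjusted p = 0.0461). The WT call, near the threshold, ended when any of 13 single livers was dropped, 9 of them WT livers at 0 hours (replicates 1, 3, 4, 5 and 6) or at 6 hours (replicates 2, 3, 4 and 6), with an adjusted p of up to 0.0993. The other 4 were SIRTintKO replicate 1 or 3 at 0 hours, 3 at 6 hours or 3 at 24 hours. It also ended with every gene of at least 1 count kept (adjusted p = 0.0586) and with only the 2 groups fitted (adjusted p = 0.0501).

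At 24 hours the 4 WT livers had 13.4, 54.9, 68.3 and 75.2 CPM of *Nr1i3*, and replicate 2 was the low one. The log2 fold change against 0 hours was -1.21 (SE 0.486, edgeR adjusted p = 0.0528), on the other side of the threshold with DESeq2 (adjusted p = 0.0265) and in 9 of the 34 fits without 1 library. The 7 SIRTintKO livers had a lowest, median and highest value of 27.7, 65.6 and 175 CPM, and the change of -0.72 did not pass (edgeR adjusted p = 0.133). Without replicate 1, the highest, it was -1.11 and passed (adjusted p = 0.0189). Exons of *Tomm40l* on the opposite strand overlap those of *Nr1i3* and reached up to 24.1 CPM.

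*Nr1i2* was the only member that passed as higher. Its lowest, median and highest values in SIRTintKO livers were 56.9, 66.7 and 81.5 CPM at 0 hours, and the 5 livers at 6 hours had 53.3, 61.4, 82.7, 159 and 182 CPM. Replicates 2 and 3 were the high ones, and the other 3 lay within or near the untreated range. The log2 fold change was 0.67 (SE 0.242, edgeR adjusted p = 0.0293). It became 0.45 (adjusted p = 0.167) without replicate 2 and 0.39 (adjusted p = 0.202) without replicate 3. The call also ended without SIRTintKO replicate 2, 4 or 6 at 0 hours (adjusted p up to 0.0745), with upper-quartile scaling (adjusted p = 0.0502) and with only the groups compared (adjusted p = 0.0666). With the replicate number added to the fit as a block it ended as well (edgeR adjusted p = 0.0603). In WT livers *Nr1i2* ranged from 61.1 to 93.3 CPM at 0 hours, from 52.6 to 90.8 CPM at 6 hours and from 61.5 to 77.1 CPM at 24 hours. The 7 SIRTintKO livers at 24 hours had a lowest, median and highest value of 54.3, 97.9 and 136 CPM (log2 fold change against 0 hours 0.41, edgeR adjusted p = 0.125).

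**Figure D4:**
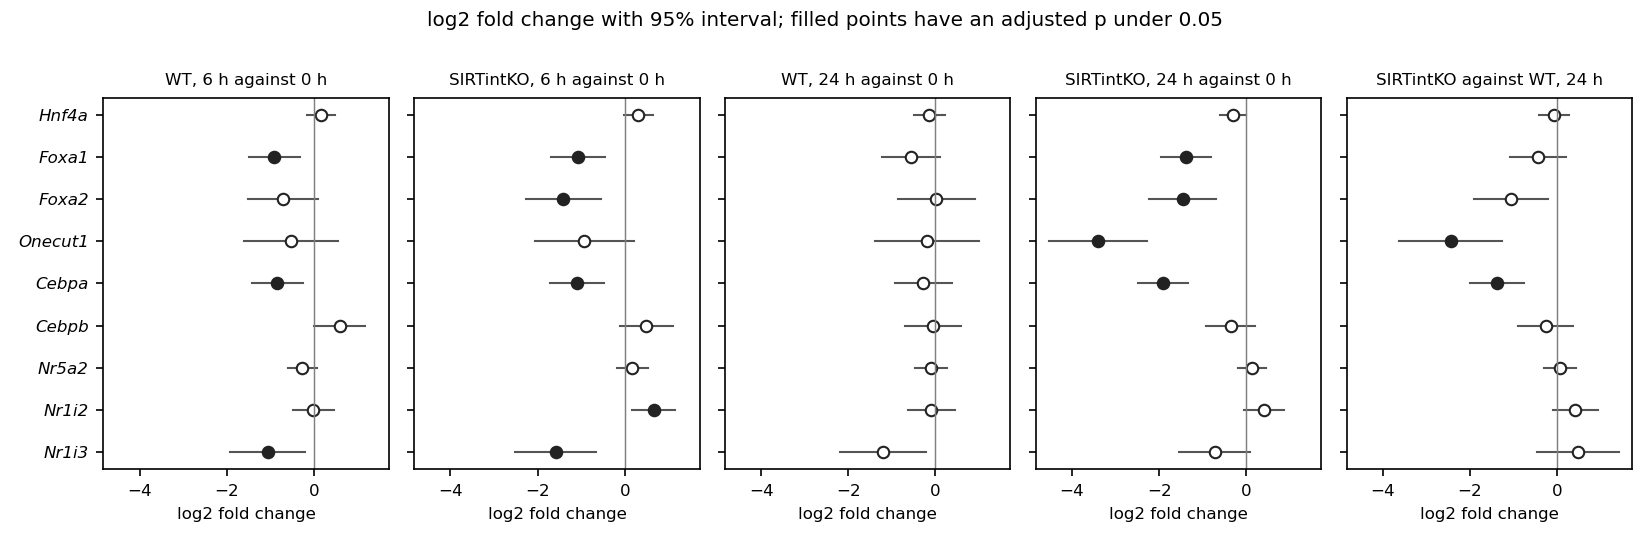
Points give the log2 fold change of each gene in 5 comparisons and bars its 95% interval, and filled points have an edgeR adjusted p under 0.05. At 24 hours against 0 hours 4 genes are filled in SIRTintKO livers and 0 in WT livers, and between genotypes at 24 hours *Onecut1* and *Cebpa* are filled.

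Untreated livers of both genotypes were compared next. At 0 hours 0 of the 9 genes passed between SIRTintKO and WT, as did 0% of all genes, and 0 of 9 had an unadjusted p under 0.05. The log2 difference with the greatest size was 0.77 for *Onecut1* (95% interval -0.30 to 1.83). At 6 hours 0 of 9 passed, again beside 0% of all genes, and *Nr1i2* was the 1 gene with an unadjusted p under 0.05 (log2 difference 0.60, SE 0.242, edgeR adjusted p = 0.736). At these 2 times 161 and 976 of all genes tested had an unadjusted p under 0.05 (edgeR), and DESeq2 passed 0 of the 9 genes at either.

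At 24 hours *Onecut1* and *Cebpa* were lower in SIRTintKO than in WT livers. These were the 2 of 9 genes that passed as lower and 0 passed as higher, where 3.51% of all genes passed as lower and 2.3% as higher. *Onecut1* was 5.44-fold lower (log2 difference -2.44, SE 0.584, edgeR adjusted p = 0.0157), at 1.87 ± 1.73 CPM (SD, n = 7) against 10.2 ± 8.27 CPM (SD, n = 4). *Cebpa* was 2.59-fold lower (log2 difference -1.37, SE 0.301, edgeR adjusted p = 0.0103), at 64.9 ± 34.9 against 168 ± 53.7 CPM. The ranges of the 2 groups overlapped for all 9 genes, whereas 1.05% of all genes had non-overlapping ranges as lower. For both genes replicate 5 was the only SIRTintKO liver within the WT range. *Foxa2* had -1.05 (SE 0.415, edgeR adjusted p = 0.118) and became -1.63 (adjusted p = 0.003) without SIRTintKO replicate 5. *Foxa1* had -0.44, *Cebpb* -0.26, *Hnf4a* -0.06, *Nr5a2* 0.06, *Nr1i2* 0.42 and *Nr1i3* 0.48, and none of these 6 passed. With only the 11 livers at 24 hours fitted, neither *Onecut1* nor *Cebpa* passed (adjusted p = 0.256 for each), at log2 differences of -2.44 and -1.37. The *Onecut1* call also ended without WT replicate 3 (-1.83, adjusted p = 0.067), the WT liver with its highest value.

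The genotypes' changes from 0 hours were compared by an interaction term. At 6 hours 0 of 9 genes passed in edgeR or DESeq2, beside 0% of all genes in edgeR, where 0 of the 9 and 457 of all genes had an unadjusted p under 0.05. At 24 hours 0 of 9 passed and 0.00668% of all genes did, which is 1 gene. The unadjusted p was under 0.05 for 3 of the 9, *Onecut1* (log2 difference of changes -3.21, SE 0.789, edgeR adjusted p = 0.106), *Cebpa* (-1.63, SE 0.417, edgeR adjusted p = 0.121) and *Foxa2* (-1.48, SE 0.571, edgeR adjusted p = 0.274). DESeq2 gave adjusted p = 0.0133 for *Onecut1* and 0.024 for *Cebpa*. Without SIRTintKO replicate 5 at 24 hours, edgeR gave adjusted p = 0.00799, 0.00591 and 0.0188 for the 3 genes, and without WT replicate 1 at 24 hours 0.0393 for *Onecut1*. A difference between genotypes in the change from 0 to 24 hours was therefore past the threshold under some of the settings run and not under others.

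The same livers stood at the ends of the range for several of these genes at 24 hours. SIRTintKO replicate 5 was the highest of 7 for *Foxa1*, *Foxa2*, *Onecut1* and *Cebpa* and the lowest for *Cebpb*. WT replicates 3 and 4 were the highest 2 of 4 for the same 4 genes, and WT replicate 4 was the lowest for *Cebpb*. The summed level of 6 neutrophil markers moved with this split. It was 13.4 and 6.97 CPM in WT replicates 3 and 4 and 102 and 84.3 CPM in replicates 1 and 2. In SIRTintKO livers it was 22.1 CPM in replicate 5, the lowest, and 56.0 to 935 CPM in the other 6. In untreated livers it was 6.73 to 22.2 CPM in WT and 4.14 to 20.6 CPM in SIRTintKO, and at 6 hours 5.44 to 58.1 and 8.69 to 16.2 CPM. The 58.1 CPM belonged to WT replicate 6 at 6 hours, beside 5.44 to 16.7 CPM in the other WT livers of that time. Of the 5 neutrophil markers tested, 5 passed as higher at 24 hours against 0 hours in SIRTintKO livers and 2 in WT livers, and 1 did between genotypes at 24 hours. The summed level of 7 cholangiocyte markers split the 24-hour livers the same way. It was 74.2 and 93.1 CPM in WT replicates 3 and 4 and 503 and 282 CPM in replicates 1 and 2, and in SIRTintKO livers 64.3 CPM in replicate 5 and 113 to 338 CPM in the other 6, with 41.5 to 85.6 CPM in all livers at 0 and 6 hours. None of the neutrophil or cholangiocyte markers was at 0 throughout a group at 24 hours. Of the 6 cholangiocyte markers tested, 3 passed as higher at 24 hours against 0 hours in each genotype and 0 differed between genotypes. Of 7 macrophage markers, 2 passed as higher in SIRTintKO than in WT livers at 24 hours, with sums of 102 to 289 and 59.0 to 117 CPM, and 0 of the endothelial, stellate, lymphocyte and gut or pancreas markers tested did. The summed hepatocyte markers were 78150 to 103900 CPM in WT and 67150 to 122900 CPM in SIRTintKO livers at 24 hours, and 72400 CPM in replicate 5. Single hepatocyte markers went both ways at 24 hours against 0 hours. In SIRTintKO livers 4 of 8 passed as lower and 2 as higher, beside 24% and 26.2% of all genes. In WT livers 3 passed as lower and 2 as higher, beside 14.6% and 19.5%. Between genotypes 1 of the 8 passed as higher and 0 as lower, beside 2.3% and 3.51%. The part of these cell markers in the results for the 9 genes was not tested.

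Further factors of the network and known target genes were read from lists chosen with earlier results of these data known. Of 24 other hepatocyte transcription factors, 9 passed as lower and 2 as higher at 24 hours in SIRTintKO livers (median log2 fold change -0.37), and 3 and 2 in WT livers (median 0.01). Of all genes, 24% passed as lower and 26.2% as higher in SIRTintKO livers and 14.6% and 19.5% in WT livers, so the WT counts of these factors lay near or under those shares. Among them *Klf15*, a glucocorticoid-responsive factor, had -2.01 and -1.72, and *Hhex*, a homeobox factor of liver development, had -1.57 in SIRTintKO livers. *Gata6* had 1.75 in WT livers. *Rxra*, the partner of PXR and CAR in binding DNA, had 0.47 in WT livers at 6 hours (edgeR adjusted p = 0.0355) and -0.37 in SIRTintKO livers at 24 hours (edgeR adjusted p = 0.0635). *Nr0b2* (SHP), which represses LRH-1 and HNF4α, had -2.59 at 6 hours in WT (edgeR adjusted p = 0.000387) and -0.24 in SIRTintKO livers (edgeR adjusted p = 0.751). The 5 SIRTintKO livers at 6 hours spread from 3.88 to 99.4 CPM of *Nr0b2* with a median of 10.4 CPM, against a median of 48.1 CPM at 0 hours, and the WT livers had medians of 9.85 and 57.9 CPM. The interaction at 6 hours passed for 0 of the 24 factors. Of the 5 further C/EBP family genes, 2 passed as higher and 1 as lower at 6 hours in each genotype. The shares of all genes were 18.9% and 18.5% in WT and 20.9% and 17.6% in SIRTintKO livers. At 24 hours 1 passed as higher and 0 as lower in WT, and 2 and 1 in SIRTintKO livers. *Cebpd*, an acute-phase factor, rose by 1.48 and 1.74 at 6 hours and by 1.02 and 1.57 at 24 hours in WT and SIRTintKO livers. *Cebpe*, at means of 5.474 and 5.555 CPM at 0 hours, had -2.02 and -1.78 at 6 hours, respectively. In SIRTintKO livers at 24 hours *Cebpe* had -2.35.

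Targets were mixed in direction. The counts at 24 hours stand beside 24% of all genes lower and 26.2% higher in SIRTintKO livers, and 14.6% and 19.5% in WT livers. Of 12 genes known as HNF4α targets, 8 passed as lower and 0 as higher at 24 hours in SIRTintKO livers (median log2 fold change -0.61) and 4 and 0 in WT livers (median -0.27). The thyroid hormone deiodinase *Dio1* had -2.81 and -2.14, and the urea cycle gene *Otc* had -1.95 and -1.68, respectively. Between genotypes, where 3.51% of all genes passed as lower and 2.3% as higher, the clotting factor genes *F7* (-0.81, edgeR adjusted p = 0.0321) and *F9* (-0.62, edgeR adjusted p = 0.0234) were lower in SIRTintKO livers. Of 9 C/EBP targets tested, 3 rose and 3 fell in each genotype at 24 hours, shares of a small list that in SIRTintKO livers lay close to those of all genes. The acute-phase gene *Orm1* rose by 2.97 in WT and 2.52 in SIRTintKO livers. Between genotypes *Hp* was lower (-0.91) and *Alb* higher (0.85) in SIRTintKO livers. Of 6 targets of the FOXA proteins and HNF6, 2 rose and 3 fell in WT and 2 rose and 2 fell in SIRTintKO livers. *Afp*, the fetal albumin-like protein, rose by 1.67 and 3.20 and was 1.61 higher in SIRTintKO than in WT livers (edgeR adjusted p = 0.0254).

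Of 7 LRH-1 targets, 3 fell and 1 rose at 24 hours in SIRTintKO livers, where 24% of all genes fell and 26.2% rose, and 2 fell in WT livers, where 14.6% did. The bile acid synthesis gene *Cyp8b1* fell by 5.86 on the log2 scale in SIRTintKO livers, from 421 ± 95.01 CPM (SD, n = 6) to a median of 1.14 CPM in 7 livers of which the highest had 45.3 CPM, while *Nr5a2* itself had a log2 fold change of 0.12. In SIRTintKO livers *Cyp7a1*, the rate-limiting gene of that pathway, had a median of 28.7 CPM at 0 hours and of 0.0602 CPM at 24 hours, with livers at 0. LRH-1 targets also fell in WT livers, where the lowest log2 fold change among the 7 was -3.94 at 6 hours and -2.51 at 24 hours. *Cyp8b1* was also lower in SIRTintKO than in WT livers at 24 hours (log2 difference -3.403, edgeR adjusted p = 0.0434). Of 12 targets of PXR and CAR, 4 rose and 3 fell at 24 hours in SIRTintKO livers, and 2 rose and 4 fell in WT livers. The SIRTintKO counts lay near the shares of all genes. *Cyp2b10*, a cytochrome P450 induced by CAR, rose by 3.37 and 1.75, and between genotypes 3 of the 12 passed as higher in SIRTintKO livers, beside 2.3% of all genes, among them *Cyp3a11* (1.505, edgeR adjusted p = 0.0237), the main gene induced by PXR, and the transporter gene *Abcc3* (1.45, edgeR adjusted p = 0.03). Several genes stand on more than 1 list, and a list's count is no test of the factor it is named for.

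Genes with the pattern most like each factor were ranked by Pearson's r of log2 CPM across the 34 libraries, among 9187 genes with a mean of at least 5 CPM. The libraries share their 6 groups, so these values describe the tables and carry no test. *Foxa1* was most like *Hhex* (r = 0.868), *Foxq1* (0.839) and *Edc3* (0.82), and *Foxa2* like *Igfals* (0.879), *1700018L02Rik* (0.878) and *Gm16551* (0.872). *Onecut1* was most like *Gm56542* (0.896), *Gm53019* (0.891) and *Naa80* (0.881), and *Cebpa* like *Ppp1r37* (0.906), *Nlrp6* (0.898) and *Gm16551* (0.898), so *Gm16551* was shared by *Foxa2* and *Cebpa*. *Cebpb* was most like *Slc38a2* (0.83), *Pim3* (0.824) and *Tat* (0.768), and *Hnf4a* like *Cipc* (0.813), *Rapgef4* (0.805) and *Bcas3* (0.787). *Nr1i2* was most like *Fmo5* (0.834), *E330011O21Rik* (0.825) and *Wipf3* (0.759), and *Nr1i3* like *Abcc2* (0.867), *Mief2* (0.863) and *Lrrc45* (0.853). *Nr5a2* had the least similar neighbors, *Tmem53* (0.661), *Gsdmd* (0.65) and *Onecut2* (0.618).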

How the data were processed

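Bulk RNA sequencing of whole liver was analyzed for 34 libraries in 6 groups, given by the labels. The table's values are expected counts per gene, which the authors deposited without normalization for depth or length after running STAR and Salmon within nf-core/rnaseq. It has 1 further column that matched no library and was left out. The submitters' processing notes name GRCm39, and no GRCm39 gene coordinates are given here. The letter x is missing from the table's symbols, and 1316 were restored through gene identifiers. Expected counts (4.97% not whole) were rounded. P-values measure the spread between mice given as biological replicates.

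The study used DESeq2. Here edgeR 4.0.16 (R 4.3.3) was the main tool, with TMM scaling, filterByExpr by group and a quasi-likelihood fit of 1 mean per genotype and time over all livers. Adjustment followed Benjamini and Hochberg, across the 14980 genes that were tested. Intervals are 95% intervals from the fit. *Cebpb* to *Cebpa* ratios, with 0.5 added to each count, were compared by two-sided exact permutation tests over livers. No pair of libraries within a group looked like 1 library deposited repeatedly. Alternatives were DESeq2 1.42.0, edgeR with the size factors of DESeq2 or with the upper quartile, filters of at least 1 count in any or 10 counts in every library, only the groups compared, a replicate block, each library left out and, for the ratio, 5 added to each count.

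The 9 genes, the lists and the tests were chosen with earlier results of these data known. Named are all 9 genes in each comparison, the 2 genes of a list with the largest change among those passing, *Rxra*, *Nr0b2* and *Cebpd*, and the 3 most similar genes by pattern. Antisense transcripts of *Cebpa* and *Foxa2* named in that rule were not found by name, and *Hnf4aos* reached at most 6.21 CPM.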

Additional observations from a re-analysis of the deposited data

Results flagged for a closer look

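Sets of values of the 9 genes and of the *Cebpb* to *Cebpa* ratio, 60 in all with 1 per group, were examined with Dixon's criterion for a highest or lowest liver far from the others, and 7 values met it. For normally distributed values chance alone meets this criterion in about 1 of 20 sets. The values of the genes were CPM without log transformation, which need not be normally distributed, and all 7 were the highest of their sets. That rate may therefore not hold here. SIRTintKO replicate 5 at 24 hours gave 3 of them, with 12.9 CPM of *Foxa1* beside 6.83 to 8.46 CPM in the other 6 livers, 48.8 CPM of *Foxa2* beside 8.29 to 12.4 CPM, and 5.58 CPM of *Onecut1* beside 0.587 to 2.29 CPM. SIRTintKO replicate 1 at 6 hours gave 2, with 30.2 CPM of *Foxa2* beside 11.95 to 15.1 CPM and 49.6 CPM of *Nr5a2* beside 30.8 to 33.9 CPM in the other 4. WT replicate 1 at 6 hours had 15.4 CPM of *Foxa1* beside 5.05 to 8.79 CPM. SIRTintKO replicate 1 at 24 hours had 175 CPM of *Nr1i3* beside 27.7 to 75.6 CPM. The causes were not tested. No difference between the genotypes in the change from 0 hours passed the interaction test in edgeR for any of the 9 genes with all libraries kept, whereas with DESeq2 *Onecut1* (adjusted p = 0.0133) and *Cebpa* (adjusted p = 0.024) passed at 24 hours.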

How the results depend on the processing

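Of the 99 results for 1 gene in 1 comparison, 18 passed, and no called value turned its direction under any of the 7 other settings or the 34 fits without 1 library. With DESeq2 size factors 18 of the 18 stayed past the threshold, as did 18 with DESeq2. With upper-quartile scaling 17 stayed, as did 17 with every gene of at least 1 count kept. The replicate block kept 15 of them, and fitting only the groups compared kept 13. With at least 10 counts in every library 15 stayed and 0 of those tested were lost. Counts of members that passed changed by over 1.5 times as follows, and the causes were not tested. With only the groups compared, members higher at 6 hours against 0 hours became 1 in WT and 0 in SIRTintKO livers, and members lower between genotypes at 24 hours became 0. With upper-quartile scaling, members higher at 6 hours in SIRTintKO livers became 0. With a minimum of 10 counts required in each library, where *Onecut1* was no longer tested, members lower in WT livers at 24 hours became 1 and members lower between genotypes at 24 hours became 1. With DESeq2 these were 1 in WT livers at 24 hours and 2 for the interaction at 24 hours. Deviations of same-numbered livers from their group means had correlations of -0.294 to 0.212 in the pairs of groups compared. Each pair of groups shared only 4 to 6 numbers, and differently numbered livers were not compared. Whether the replicate numbers pair livers was therefore not settled. The fit with the replicate block gave 0 members higher at 6 hours in SIRTintKO livers. It gave 1 lower at 24 hours in WT livers and 2 lower from 6 to 24 hours in SIRTintKO livers.

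Leaving out each library in turn gave 0 to 3 members lower in WT livers at 6 hours, 0 to 1 higher in SIRTintKO livers at 6 hours, 0 to 1 lower in WT livers at 24 hours, 0 to 1 lower from 6 to 24 hours in WT livers, 2 to 4 lower from 6 to 24 hours in SIRTintKO livers, 1 to 3 lower between genotypes at 24 hours and 0 to 3 lower for the interaction at 24 hours. The log2 ratio of *Cebpb* to *Cebpa* in SIRTintKO livers at 6 hours ranged from 1.48 to 2.14, and that between genotypes at 24 hours from 0.88 to 2.02. At this depth the low values of *Onecut1* rest on few counts, from 8 upward.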
